A study of Epimedium pubescens with 12 samples.

Results

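The miRNAs aqc-miR156b, aqc-miR172a and aqc-miR172b were followed through 12 small RNA libraries of leaves of Epimedium pubescens, a medicinal plant of the barberry family. They were taken by name from the deposited table, as its only rows with miR156 or miR172 in the name, and make up 3 of 220 miRNAs. The prefix aqc is the miRBase code of the columbine Aquilegia coerulea, so the names are those of miRNAs of that species. One-year-old seedlings were grown in sand and watered with a nutrient solution that held 0 mmol/L inorganic phosphate (-P, phosphorus deficiency) or 1 mmol/L (+P, normal phosphorus). Leaves were sampled after 30 d and after 90 d, which gives 90d -P, 30d -P, 90d +P and 30d +P with 3 libraries each, named replicates A, B and C. Each treatment had 3 replications of 12 seedlings from a cultivation base. The labels give no genotype and no position or age of the leaves.

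miR156 and miR172 are known from Arabidopsis and maize as an opposed pair in vegetative phase change, the passage of a shoot from its juvenile to its adult form. miR156 represses SPL transcription factors, is abundant in young shoots and declines as the shoot ages. SPL proteins in turn promote miR172, which represses AP2-like transcription factors and is known to increase toward the adult and flowering state. SPL and AP2-like transcripts were not analysed here.

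All 3 miRNAs were scarce. Over the 12 libraries, 35 counts were assigned to aqc-miR156b, 73 to aqc-miR172a and 1 to aqc-miR172b, out of 11526632 counts. Among the 22 miRNAs with the aqc prefix, called known miRNAs here, aqc-miR172a ranked 16 and aqc-miR156b ranked 17 by total count. Levels are in TPM, which here is the count scaled by the library's total in the table. A library held between 380316 and 1466897 counts. With 3 counts as the limit, a miRNA without a count could have been at 7.89 TPM in the shallowest library and at 2.05 TPM where depth was greatest. The most abundant miRNA, aqc-miR166e, took 47.7% to 73.1% of counts in the 90d libraries and 35.4% to 53.0% in the 30d libraries, and TPM is measured against totals that include it. Intervals given here are exact 95% intervals and cover counting error only.

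The 30d replicate C libraries stood apart from the other 30d libraries. On the first principal component of the 137 miRNAs that passed a filter on low counts, which held 30.1% of the variance, the 30d A and B libraries had scores of -14.1 to -9.63. The 30d C libraries had scores of 3.30 in -P and 0.155 in +P, and the 90d libraries 2.17 to 12.3. Pooled time differences of aqc-miR156b and aqc-miR172a, and their edgeR fits over both phosphorus levels, are therefore also given without these libraries.

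The level of aqc-miR156b was lower at 90d than at 30d at both phosphorus levels. Replicates A, B and C of 90d -P were at 2.08, 0 and 2.93 TPM, against 11.3, 6.53 and 11.4 TPM in 30d -P. These values rest on 3, 0 and 3 counts in 90d -P, against 6, 5 and 8 counts in 30d -P. In 90d +P no count was found in any library, against 6.96, 2.63 and 3.41 TPM in 30d +P, from 4, 1 and 5 counts. Every 30d library thus held at least 1 count of aqc-miR156b, while 2 of the 6 libraries did so at 90d. The groups did not overlap between times at either phosphorus level. Under +P this rests on the 1 count of 30d +P replicate B, the shallowest library. Its 2.63 TPM is below the limit of 3 counts in 90d +P replicate C, 3.31 TPM. It is just above those of replicates A and B, 2.50 and 2.48 TPM. The exact upper bounds of the 90d +P libraries, 3.05 to 4.07 TPM, all lie above it. Over all 220 miRNAs, levels were lower with no overlap in 5.91% under -P and in 15.5% under +P, and in 1.36% at both phosphorus levels. The last share stands for 3 miRNAs, aqc-miR156b and the predicted novel_1 and novel_110. In whole leaves, fewer cells with a miRNA and less of it per cell cannot be told apart.

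**Figure D1:**
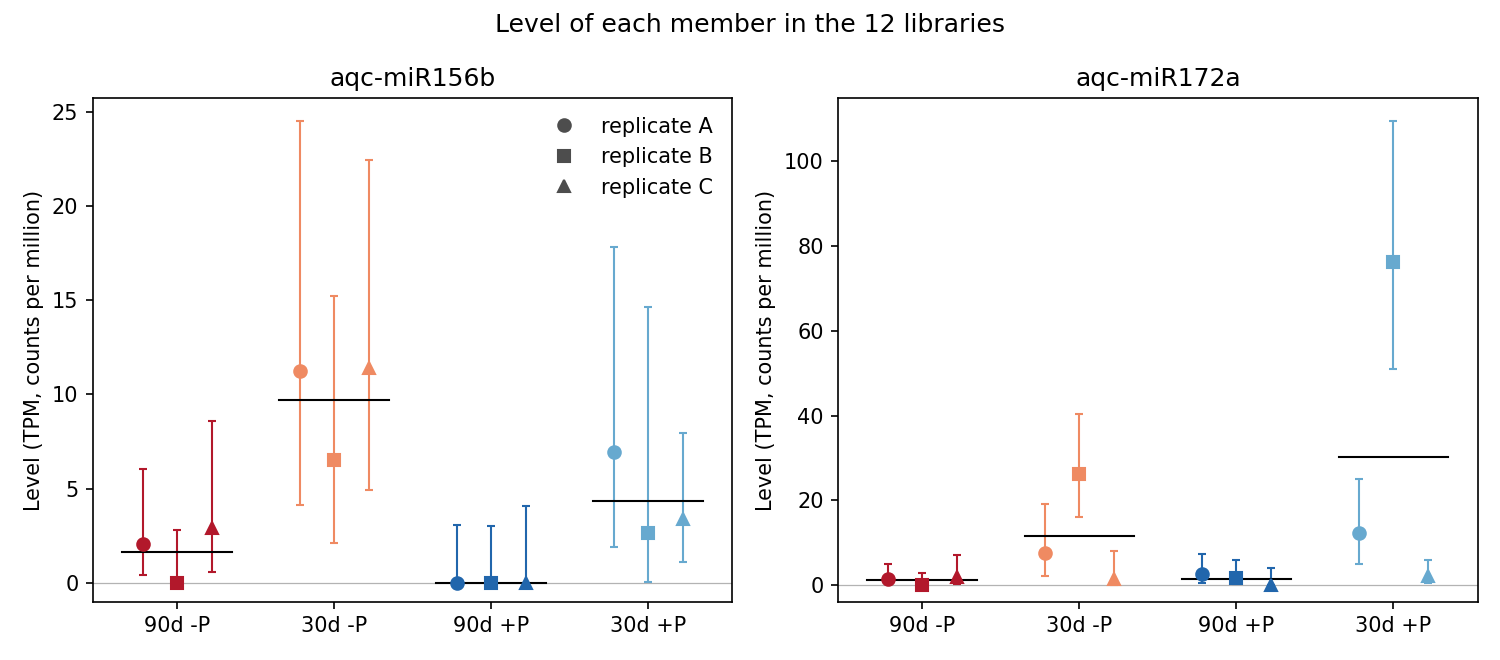
Level in TPM of aqc-miR156b (left panel) and aqc-miR172a (right panel) in each of the 12 libraries by group. Symbols are single libraries marked by replicate letter, vertical bars are exact Clopper-Pearson 95% intervals for counting error, and black lines are means of 3 libraries. For aqc-miR156b each 90d group lies below its 30d group, with all 3 libraries of 90d +P at 0. For aqc-miR172a the 30d B libraries reach 26.1 and 76.3 TPM, while the 30d C libraries, at 1.42 and 2.05 TPM, lie among the 90d libraries.

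Pooling the 3 libraries of a group gave the same order. For 90d -P the pooled level of aqc-miR156b was 1.59 TPM (Poisson interval 0.582 to 3.45), while for 30d -P it was 9.49 TPM (5.72 to 14.8), a 5.99-fold lower level at 90d with a counting interval of 2.30 to 18.3. Without 90d -P replicate B, which had 0 counts, it was 3.90-fold lower (1.499 to 11.9). In 90d +P there were 0 counts among 3319208. The limit of 3 counts was 0.904 TPM there and the exact Poisson upper bound 1.11 TPM, against 4.13 TPM (1.98 to 7.59) in 30d +P. With the limit of 3 counts set against the 30d estimate, the level was at least 4.57-fold lower at 90d. The counting interval of the ratio, which also holds the error of the 30d count, began at 3.07-fold lower. Without any 1 of the 90d +P libraries the bound from 3 counts was 2.90-fold to 3.32-fold, and the interval began at 1.95-fold to 2.23-fold lower. Had the 30d level held, 35.9 counts were to be found over the 90d -P libraries, which had 6. For 90d +P the like number was 13.7, and 0 were found. The 90d groups were the more deeply sequenced, with pooled totals of 3784580 in 90d -P against 2001301 in 30d -P, and 3319208 in 90d +P against 2421543 in 30d +P. Without the 30d C libraries the level was 5.34-fold lower in 90d -P and, by the same limit, at least 5.79-fold lower in 90d +P, with a counting interval that began at 3.19-fold.

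**Figure D2:**
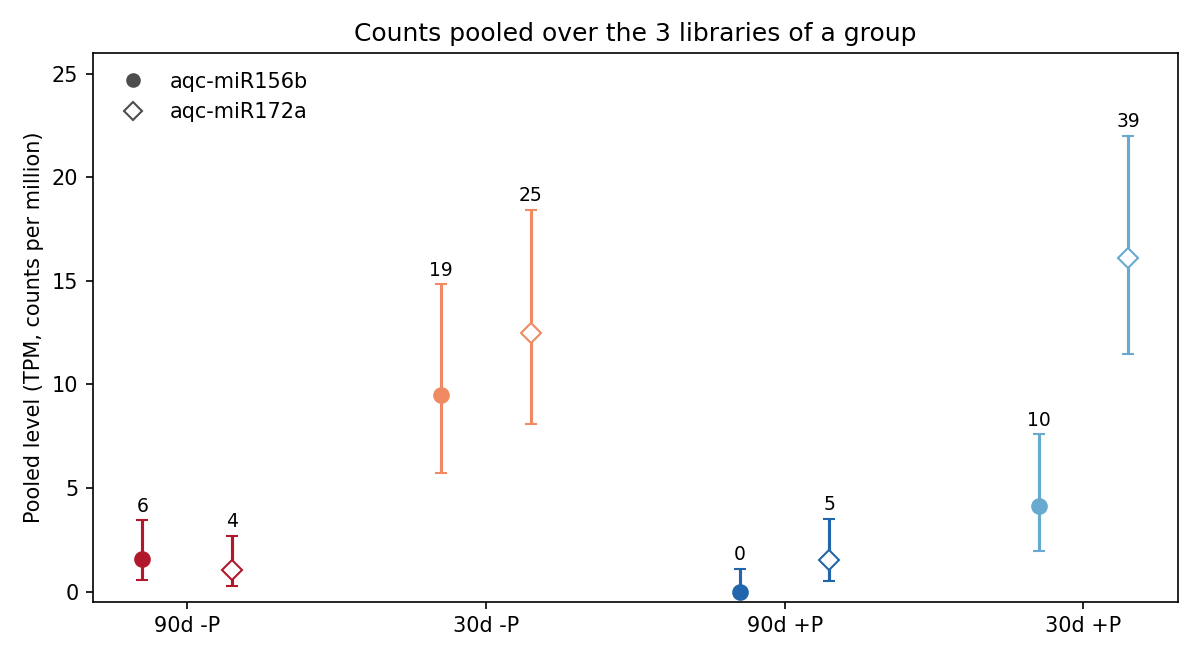
Pooled level in TPM of aqc-miR156b (filled circles) and aqc-miR172a (open diamonds) in each group, from counts summed over 3 libraries. Bars are exact Poisson 95% intervals and the number above each bar is the pooled count. Both miRNAs have upper bounds of 3.52 TPM or less at 90d, and aqc-miR156b has 0 counts in 90d +P.

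The time difference of aqc-miR156b was tested over libraries. Under -P the mean level was 1.67 ± 1.51 TPM at 90d, against 9.73 ± 2.77 TPM at 30d (SD, n = 3 each, two-sided exact permutation p = 0.1). It was 0 TPM in all 3 libraries of 90d +P and averaged 4.33 ± 2.31 TPM in 30d +P (SD, n = 3 each, exact permutation p = 0.1). Each p is the smallest that 3 libraries against 3 allow. Over both phosphorus levels, with times exchanged within each level, the mean difference was -6.19 TPM and the exact two-sided permutation p was 0.005, the smallest possible of 400 regroupings. The Benjamini-Hochberg adjusted value over the 15 exact tests of these miRNAs was 0.075, so the difference did not pass after adjustment. The direction was the same when aqc-miR166e was left out of the totals and with TMM library sizes.

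aqc-miR156b did not pass the filter on low counts and had no value in the main count model. In the same edgeR quasi-likelihood fit without a filter, its log2 fold change over both phosphorus levels was -3.69, with an unadjusted p of 0.00476 and a Benjamini-Hochberg adjusted p of 0.0910 over 220 miRNAs. The adjusted p was 0.564 under -P (0.0942 unadjusted) and 0.175 under +P (0.0139 unadjusted). No miRNA of the 220 had an adjusted p under 0.05 in these time comparisons (0.0%). At an unadjusted p under 0.05 edgeR counted 22 under -P, 50 under +P and 66 over both levels, while DESeq2 without a filter called 1, 29 and 33 at an adjusted p under 0.05. Lower miRNAs with an unadjusted p under 0.05 and a log2 fold change of at least 1 in size made up 7.27%, 15.0% and 20.9% of the 220, and aqc-miR156b was among them under +P and over both levels. The newer edgeR method gave aqc-miR156b an adjusted p of 0.0369 over both levels, the only alternative under 0.05, in a range of 0.0369 to 0.210. Without both 30d C libraries its log2 fold change over both levels was -3.37 (edgeR adjusted p = 0.0969, unadjusted 0.0265). Fitted sizes under +P depend on the prior count, because 90d +P had 0 counts.

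The level of aqc-miR172a was also lower at 90d than at 30d in pooled counts, but single 30d libraries carried most of the difference. Without phosphate, replicates A, B and C had 1.38, 0 and 1.96 TPM at 90d, against 7.50, 26.1 and 1.42 TPM at 30d. With phosphate, they had 2.50, 1.65 and 0 TPM at 90d, against 12.2, 76.3 and 2.05 TPM at 30d. The groups overlapped at both phosphorus levels, since both 30d C libraries lay within the 90d range of 0 to 2.50 TPM. Replicate B held 20 of the 25 counts in 30d -P and 29 of the 39 counts in 30d +P. The 30d +P replicate B library was also the shallowest of the 12.

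Pooled over 90d -P, aqc-miR172a had 1.06 TPM (Poisson interval 0.288 to 2.71), against 12.5 TPM (8.08 to 18.4) over 30d -P, which is 11.8-fold lower at 90d. Pooled over 90d +P it had 1.51 TPM (0.489 to 3.52), against 16.1 TPM (11.5 to 22.0) over 30d +P, which is 10.7-fold lower at 90d. Counting intervals of these folds were 4.08 to 46.7 under -P and 4.21 to 34.8 under +P. They leave out the spread between libraries, and the counting intervals of the 30d libraries B and C did not overlap at either phosphorus level (15.9 to 40.3 against 0.0361 to 7.94 TPM in -P, and 51.1 to 110 against 0.422 to 5.98 TPM in +P). Without replicate B of the 30d group the pooled level was 3.83-fold lower under -P (0.824 to 19.3) and 3.25-fold lower under +P (1.01 to 12.1). Without the 30d C libraries it was 17.5-fold and 25.0-fold lower.

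aqc-miR172a passed the filter and was tested among 137 miRNAs by edgeR's quasi-likelihood test. It passed on its 30d levels, since no 90d library was above 2.50 TPM, so passing is no evidence of a time difference. Its log2 fold change was -3.38 (SE 1.59) between 90d -P and 30d -P (edgeR adjusted p = 0.481, unadjusted 0.0525). Between 90d +P and 30d +P it was -3.47 (SE 1.59, edgeR adjusted p = 0.184, unadjusted 0.0470), and over both levels -3.42 (SE 1.12, edgeR adjusted p = 0.105, unadjusted 0.00897). Over the 137 miRNAs the median in these comparisons was -0.08, 0.05 and -0.11. Without replicate B of the 30d group the value for aqc-miR172a was -1.75 under -P and -1.56 under +P. In the edgeR fit without a filter it was -3.64 over both levels (adjusted p = 0.0910 over 220 miRNAs, unadjusted 0.00439). No miRNA had an adjusted p under 0.05 in any of these 3 comparisons (0.0%), while edgeR gave 11, 36 and 42 an unadjusted p under 0.05, and DESeq2 called 1, 31 and 36 at an adjusted p under 0.05.

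The study's methods state a rule, an unadjusted p under 0.05 with a log2 fold change of at least 1 in size, for DESeq2. In the main edgeR fit aqc-miR172a passed this rule under +P and over both levels but not under -P. With DESeq2 it passed under -P too (log2 fold change -3.52, unadjusted p = 0.0290). So it did in edgeR with RLE (unadjusted p = 0.0463), TMMwsp (0.0402) or no filter (0.0390). It did not pass under -P in edgeR with library totals (0.0529), the newer method (0.136) or the replicate block (0.217). In the main edgeR fit the same rule took 26.3% of the tested miRNAs under +P, 29.9% over both levels and 8.03% under -P. Lower miRNAs alone were 13.1%, 15.3% and 5.11%. With DESeq2 it took 22 of the 137 tested miRNAs under -P. The call over both levels at an adjusted p under 0.05 changed with the processing as well. The adjusted p of aqc-miR172a was 0.0112 with DESeq2, 0.0221 without both 30d C libraries and 0.0438 without 30d +P replicate C, in a range of 0.0112 to 0.185. Exact permutation of the libraries gave p = 0.2 under each phosphorus level (n = 3 against 3). Over both levels the mean TPM differed by -19.7 with an exact permutation p of 0.03 (adjusted 0.225). This p was 0.05 with aqc-miR166e left out of the totals and 0.065 to 0.23 without 90d -P replicate A or B or any single 90d +P library. Over all 15 alternatives it ranged from 0.01 to 0.23. Leaving out a library also leaves unequal groups and fewer regroupings. How reads shared by near-identical miRNAs such as miR172a and miR172b were counted is not given, so the split between these rows is uncertain.

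**Figure D3:**
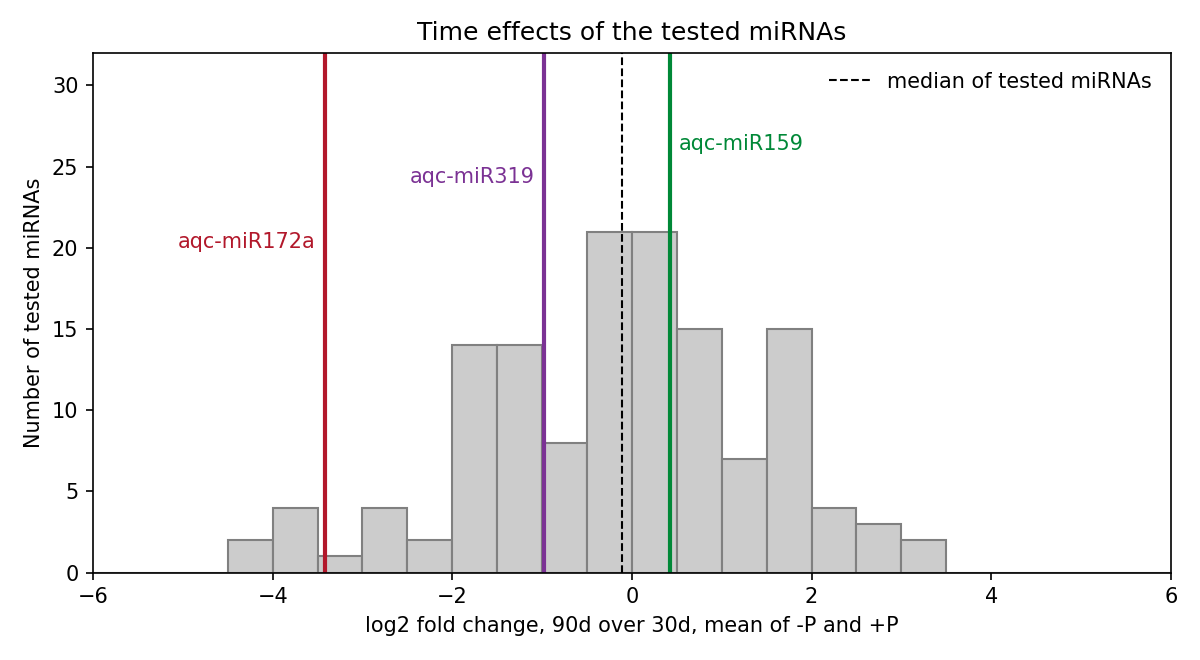
Histogram of the log2 fold change of 90d over 30d, as the mean of the effects under -P and +P, for the 137 miRNAs tested by edgeR. Solid lines mark aqc-miR172a at -3.42, aqc-miR319 at -0.98 and aqc-miR159 at 0.43, and the dashed line marks the median of -0.11. aqc-miR172a lies in the lower tail, where 7 of the 137 miRNAs are at or below its value.

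aqc-miR172b, the other miR172 row, had 1 count in 30d -P replicate A and 0 counts in the remaining 11 libraries. The pooled limits of 3 counts were 0.793 TPM for 90d -P, against 1.50 TPM for 30d -P, and 0.904 TPM for 90d +P, against 1.24 TPM for 30d +P. No difference in aqc-miR172b was detectable at this depth.

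aqc-miR172a varied more than aqc-miR156b among the 30d libraries. The level of aqc-miR156b ranged 4.33-fold, between 2.63 and 11.4 TPM, and that of aqc-miR172a ranged 53.5-fold, between 1.42 and 76.3 TPM. In the 30d C libraries aqc-miR172a was lower than in replicates A and B at both phosphorus levels, as were 21.9% of the 137 tested miRNAs, with 11.7% higher. aqc-miR156b did not show this order, but its counting intervals in the 30d libraries all overlapped. Its order there cannot be told from counting error. Its highest level of all libraries, 11.4 TPM, was in 30d -P replicate C, and its level in 30d +P replicate C, 3.41 TPM, lay between those of replicates A and B. The lowest 30d level of aqc-miR156b, 2.63 TPM, came from the library with the highest level of aqc-miR172a, 30d +P replicate B, where it rests on 1 count.

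**Figure D4:**
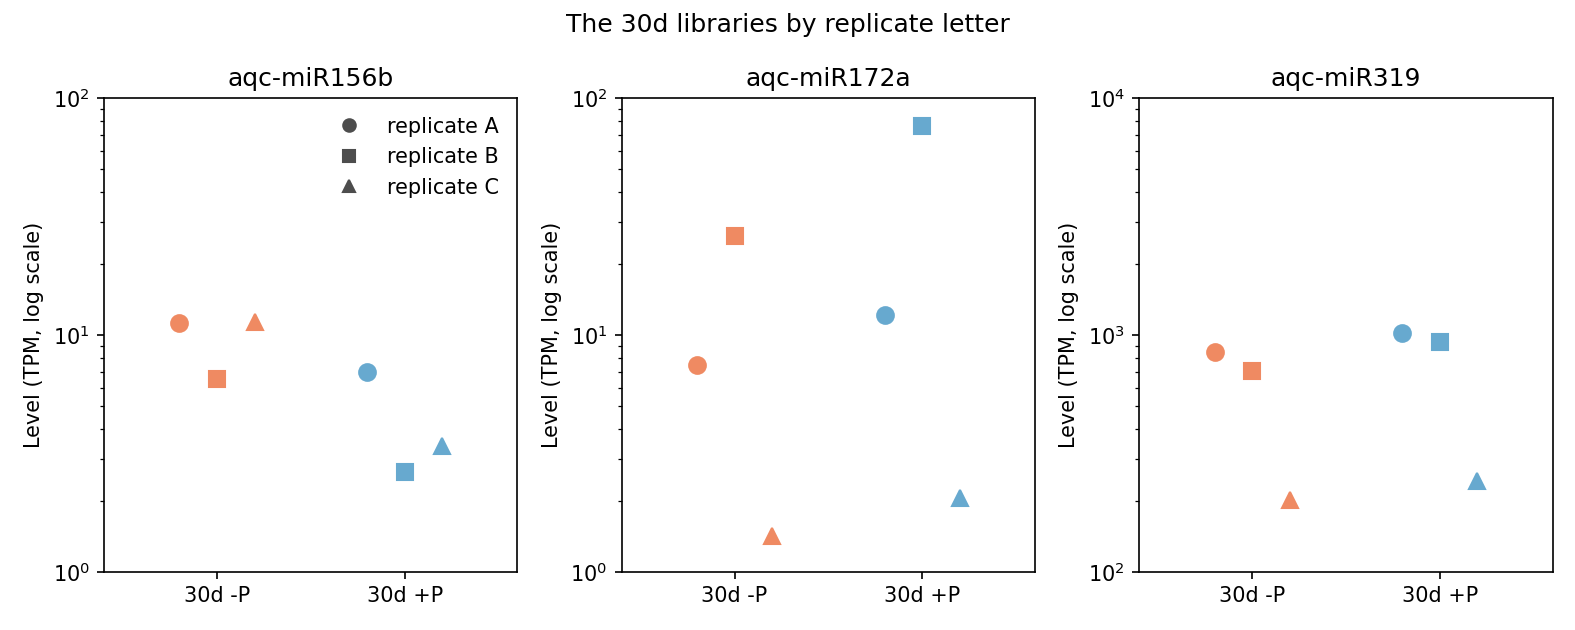
Level in TPM on a log scale of aqc-miR156b, aqc-miR172a and aqc-miR319 in the 6 libraries of 30d, by phosphorus level and replicate letter. Points are single libraries. Replicate C is the lowest library of its group for aqc-miR172a and aqc-miR319 at both phosphorus levels, and is not the lowest for aqc-miR156b.

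The balance of the pair within a library was taken as log2 of (miR156 count + 0.5) over (miR172 count + 0.5), with both miR172 rows summed. It uses no depth scaling, but at counts this low the added 0.5 pulls it toward 0. It averaged 0.32 ± 0.28 in 90d -P and 0.28 ± 2.20 in 30d -P (SD, n = 3 each, exact permutation p = 1). It averaged -1.71 ± 1.50 in 90d +P and -1.46 ± 2.55 in 30d +P (SD, n = 3 each, exact permutation p = 0.9). Over both levels the difference was -0.10 with an exact permutation p of 0.905. No shift of the balance between times was detectable. In 90d -P replicate B and 90d +P replicate C neither family had a count, and these libraries entered the averages and tests as 0. The lack of a shift thus rests in part on the added 0.5. At 30d the ratio spanned -4.30 in +P replicate B to 2.50 in -P replicate C, which is wider than any difference between groups.

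Phosphorus supply was compared at each time with the same libraries. At 30d the mean level of aqc-miR156b, 9.73 TPM without and 4.33 TPM with phosphate, came from libraries that overlapped (exact permutation p = 0.2, n = 3 against 3). Paired by replicate letter, aqc-miR156b was higher in -P in 3 of 3 pairs and aqc-miR172a was lower in -P in 3 of 3 pairs, each with an exact sign-flip permutation p of 0.25, the smallest that 3 pairs allow. The paper names a completely randomized design, so the letters mark no pairs by design. Some libraries of these pairs held 1 count of the miRNA, and the share of all miRNAs alike in 3 of 3 pairs was not computed. In pooled counts the 30d -P level of aqc-miR156b was 2.30-fold that of 30d +P, with a counting interval of 1.02 to 5.54, and 1.62-fold without the 30d C libraries (0.518 to 5.93). At 90d its 6 counts were all in -P libraries, against 0 in 90d +P (exact permutation p = 0.4, n = 3 against 3). The counting interval of this ratio began at 1.03-fold, and at 0.497-fold without 90d -P replicate C. The unfiltered edgeR fit gave this difference an adjusted p of 0.623 (0.0362 unadjusted), in a comparison where 2.27% of the 220 had an adjusted p under 0.05 and 4.09% were higher by the unadjusted rule. aqc-miR172a had a log2 fold change of -0.82 (SE 1.41) between 30d -P and 30d +P and -0.74 (SE 1.61) between 90d -P and 90d +P, with edgeR adjusted p values of 0.986 and 0.868. Without 30d +P replicate B the 30d value was 0.93. In the edgeR fits, adjusted p under 0.05 was reached by 0.0% of the 137 tested miRNAs at 30d (5 at an unadjusted p under 0.05, and 0 by DESeq2 after adjustment) and by 2.19% at 90d, and aqc-miR172a was not among them. No difference in the time effect between -P and +P was found for aqc-miR172a (log2 difference 0.09, edgeR adjusted p = 0.995) or, without a filter, for aqc-miR156b (log2 difference 2.28, edgeR adjusted p = 0.905). For this difference edgeR again called 0.0% of the 137 tested miRNAs, with 7 at an unadjusted p under 0.05 and none by DESeq2. Without a filter edgeR called 0 of 220, with 13 at an unadjusted p under 0.05. The size for aqc-miR156b again depends on the prior count.

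Other miRNAs of phase change and flowering were read from a list of 8 families (miR156, miR157, miR159, miR172, miR319, miR390, miR529 and miR535). Of these, miR159, miR319 and miR535 had a row each beside the miRNAs above. aqc-miR319, which represses TCP transcription factors of leaf growth in Arabidopsis, had a pooled level of 217 TPM in 90d -P, against 566 TPM in 30d -P. With phosphate the pooled level was 221 TPM at 90d, against 536 TPM at 30d. Its log2 fold change over both levels was -0.98 (SE 0.53) with an edgeR adjusted p of 0.205. Its level in the 30d C libraries, 201 TPM in -P and 241 TPM in +P, lay within the 90d range of 154 to 314 TPM, while the 30d A and B libraries were at 704 to 1022 TPM. aqc-miR159, which represses GAMYB-like transcription factors, had a pooled level of 9.51 TPM in 90d -P, against 6.995 TPM in 30d -P. With phosphate it was 6.03 TPM at 90d, against 9.09 TPM at 30d. Its log2 fold change over both levels was 0.43 (SE 0.68) with an edgeR adjusted p of 0.725. aqc-miR535, a relative of miR156, had 1 count in all, in 30d +P replicate B. None of the 3 tested miRNAs of the list, aqc-miR172a included, had an edgeR adjusted p under 0.05 over both levels in either direction.

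The miRNAs whose log2 CPM over the 12 libraries was most like that of aqc-miR172a were novel_125, novel_15 and novel_127, all predicted, with Pearson r of 0.913, 0.904 and 0.880. These are descriptions over 12 libraries that share depth and library composition. novel_15 was the most abundant of them, pooled at 809 TPM in 90d -P, against 4233 TPM in 30d -P, and with phosphate at 1117 TPM at 90d, against 3962 TPM at 30d. novel_125 had 3 counts in 90d -P, against 16 in 30d -P, and 0 in 90d +P, against 16 in 30d +P. No likeness was computed for aqc-miR156b and aqc-miR172b, which did not pass the filter.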

How the data were processed

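Small RNA libraries were made from leaf RNA with the NEBNext small RNA kit, which carries no molecular identifiers. Per the paper the authors removed adapter, low-quality, rRNA, tRNA, snRNA and repeat reads and predicted further miRNAs with miREvo and mirdeep2. The submitters' processing notes name Bowtie and DESeq2. The sources used here do not give the mismatch rule, genome build or miRBase release, and mature sequences were not used here. The authors deposited a raw read count per miRNA and library, group means of counts (not used), and TPM values. The deposited TPM values equal the CPM of the table total, with no length term.

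Counts were tested with edgeR 4.0.16 (quasi-likelihood F test, older method, TMM) in R 4.3.3, with 4 groups in 1 model over 12 libraries. filterByExpr at a minimum count of 10 kept 137 of 220 miRNAs, and 1 of the 3 members. P-values are two-sided and Benjamini-Hochberg adjusted. The standard error (SE) is the absolute log2 fold change over the square root of F. Exact permutation tests and Clopper-Pearson and Poisson intervals used scipy 1.17.1. Samples were grouped by title, and p-values measure the spread between these libraries. Which library came from which replication of seedlings is not stated. Members, lists and tests were chosen with earlier results of these data known. The miRNAs named are the members, the 8 listed families, aqc-miR166e, and the 3 tested miRNAs most correlated with a member that passed the filter. novel_1 and novel_110 were named after their values were seen.

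Replicate letters were tested as pairs by the correlation of deviations from group means. All 3 pairs of 30d -P with 30d +P exceeded 0.1 (0.211 to 0.455), while other comparisons held pairs at or below 0.1 (lowest -0.267). The letters were therefore treated as pairs of the phosphorus groups at 30d. This choice rests on these data alone, since the paper names a completely randomized design. Alternatives were RLE, library totals with and without aqc-miR166e, TMMwsp, a stricter filter (10 counts in 6 libraries), no filter, the newer edgeR method, DESeq2 1.42.0, fits on 6 libraries, the replicate block, and leaving out libraries. A minimum count of 3, the paired test of TPM at 30d, and all no-filter fits of aqc-miR156b beyond the first, were added after the data were seen. Relative to TMM, library totals shifted the median log2 fold change by -0.75 between 90d +P and 30d +P and by -0.17 between 90d -P and 30d -P.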

Additional observations from a re-analysis of the deposited data

How the results depend on the processing

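The lower level of aqc-miR156b and aqc-miR172a at 90d held in every alternative that gave a value, under -P, under +P and over both. At an adjusted p under 0.05 the mean time effect passed in 1 of the 20 alternatives with an adjusted value for aqc-miR156b (newer edgeR method, log2 fold change -3.71; DESeq2 gave no adjusted p) and in 3 of 21 for aqc-miR172a (DESeq2 on 12 libraries, -3.68; without both 30d C libraries, -3.84; without 30d +P replicate C, -3.57). Leaving out 1 library moved the mean time effect of aqc-miR156b between -3.98 and -3.22 and that of aqc-miR172a between -3.96 and -2.42. Under -P alone the ranges were -3.12 to -1.71 and -4.11 to -1.75, and under +P alone -4.98 to -4.55 and -4.09 to -1.56. aqc-miR172a was removed by the stricter filter and by the filter on the 6 libraries of single comparisons, so these gave no value. The difference of its time effects turned to -0.44 with the newer edgeR method and ranged from -1.73 to 1.74 with 1 library left out, and its 30d phosphorus effect from -2.48 to 0.93. The cause was not tested.

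The mean TPM difference of aqc-miR172a over both levels was -34.1 without aqc-miR166e in the totals (exact permutation p = 0.05), and -26.7 to -8.15 with 1 library left out. Its TPM difference between -P and +P ranged from -32.5 to 4.56 at 30d and from -0.961 to 0.287 at 90d in the same way. The miR156 to miR172 balance had no stable sign. Between 90d and 30d over both levels it was 0.11 with a pseudocount of 1, 0.98 without both 30d C libraries, -2.04 with miR172b alone (exact permutation p = 0.02, where miR172b has 1 count), and -0.81 to 0.45 with 1 library left out. Under +P it was 0.14 with a pseudocount of 1, 0.81 without both 30d C libraries and -1.67 to 0.81 with 1 library left out. Under -P it was -0.055 with miR172a alone, -1.35 with miR172b alone and -1.05 to 1.15 with 1 library left out.

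Counts of miRNAs with an adjusted p under 0.05 moved as follows. Between 90d -P and 30d -P DESeq2 gave 1. Between 90d +P and 30d +P DESeq2 gave 31, the newer edgeR method 19, and the count was 2 without both 30d C libraries and 1 with the stricter filter. Over both levels these settings gave 36, 13, 43 and 4, with 0 to 24 when 1 library was left out (24 without 30d +P replicate C). Between 90d -P and 90d +P the main count of 3 became 5 with RLE, library totals, TMMwsp or no filter, 9 with the newer edgeR method, 8 with DESeq2, 6 without both 30d C libraries, 0 with the stricter filter or on 6 libraries, and 0 to 5 with 1 library left out. By the unadjusted rule the counts ranged over all alternatives from 6 to 27 (main 11) for 90d -P against 30d -P, 19 to 54 (main 36) for 90d +P against 30d +P, and 32 to 64 (main 41) over both. They ranged from 5 to 19 (main 7) for the difference of the time effects, 2 to 12 (main 5) for the phosphorus groups at 30d and 6 to 21 (main 11) for those at 90d.

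With the replicate block the mean time effect was -2.44 for aqc-miR172a (adjusted p = 0.185) and -3.81 for aqc-miR156b without a filter (adjusted p = 0.138), and the count between 90d -P and 90d +P was 0, against 3 without the block. The block fits the letters over all 12 libraries, 90d included, so it is not a paired fit of the 30d groups alone. Between the 30d groups it gave -0.71 for aqc-miR172a (adjusted p = 0.988) and changed no call for these miRNAs. As far as stated, libraries of different groups share only a letter, also at 30d. Depth limits every statement on aqc-miR156b and aqc-miR172b, since no library held more than 8 counts of them.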
